A study of Oryza sativa with 6 samples.

Results

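The genes described here belong to both families of nuclear auxin regulators in rice (Oryza sativa), the Aux/IAA repressors and the auxin response factors (ARF). They were chosen by locus identifier, as 28 Aux/IAA and 25 ARF loci. Of these 53, 52 were found among the 55801 loci of the count files, and IAA5 was not analysed here. The plants were of the cultivar Nipponbare, grown at 28 °C on Chu's medium under a 12 h light and 12 h dark cycle. AM plants were taken 30 min before lights on (end of the night, 3 libraries) and PM plants 30 min before lights off (end of the day, 3 libraries), with no other treatment or allele named. The sample labels name seedling as the source and panicle as the organ, and do not say whether the replicates were separate plants. The p-values therefore speak for the spread among these libraries alone.

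Auxin acts in the nucleus by removing repressors. ARF proteins bind auxin response elements in promoters, and Aux/IAA proteins bind ARFs and recruit TOPLESS-type corepressors. When auxin joins an Aux/IAA protein to a TIR1/AFB F-box receptor, the repressor is marked for destruction and the ARF is released. Many Aux/IAA genes are themselves switched on by ARFs, which makes the repressors early auxin-response genes. ARFs with a glutamine-rich middle region are classed as activators and the others mostly as repressors. In rice, transcripts of several ARFs are cut under the guidance of the small RNAs miR160, miR167 or tasiR-ARF.

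Libraries held 13 M to 66.7 M gene counts, and 3 counts, the upper limit behind a 0, came to between 0.0548 and 0.173 CPM (counts scaled to a library size of 1e6) after TMM scaling (trimmed mean of M values, the scale of all CPM below). The dawn gene LHY averaged 3979 ± 175 CPM in AM against 5.06 ± 2.55 CPM in PM (SD, n = 3), and GI and PRR1 were higher in PM, as their time labels have it. Of 10 floral MADS genes, 8 had counts in AM and 6 in PM, MADS6 and MADS7 by 1 count each in AM replicate 2. Summed levels were 6.89 to 9.18 CPM in AM and 4.43 to 5.66 in PM. MADS16 held most of the AM sum and fell from 5.33 ± 1.01 to 1.30 ± 0.736 CPM (SD, n = 3). MADS58 went the other way, from 0.458 ± 0.151 to 1.51 ± 0.336 CPM (SD, n = 3). MADS1, MADS2 and MADS4 had slightly higher means in PM, and MADS3 had a lower one. MADS8 and MADS13 had none. The shoot meristem genes OSH1 and OSH15 were at 0 counts in all 6 libraries and OSH71 had 1 count. Of 3 root transporters LSI2 was at 0; the list summed to 19.5 to 28.7 CPM in AM and 5.87 to 7.09 in PM. The leaf photosynthesis genes RCA and PRK averaged 34877 ± 8239 and 8572 ± 836 CPM in AM and 1573 ± 397 and 1157 ± 27.3 CPM in PM (SD, n = 3). The part of these markers in the results below was not tested. In RNA pooled from many cells, fewer cells of a type and less RNA per cell cannot be told apart.

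Many members differed between the times of day, as did many loci at large. Calls were made at an adjusted p of 0.05 (edgeR's quasi-likelihood test, Benjamini-Hochberg over all loci). Of the 46 members with enough counts to test, 8 (17.4%) were higher and 14 (30.4%) lower in PM. Together that is 47.8%, against 55.9% of all 20548 loci tested, where 28% were higher and 28% lower. Both families had the same counts, with 4 higher, 7 lower and 12 not called among 23 tested. The 3 AM values lay wholly apart from the 3 PM values at 30 members, or 65.2%, against 64.1% of all loci. Median log2 fold changes of PM over AM were −0.11 for the Aux/IAA genes and −0.18 for the ARF genes, against −0.01 over all loci.

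The 3 deepest falls among the tested members were those of the Aux/IAA genes IAA31, IAA23 and IAA2, with 20, 32 and 266 counts in PM. Aux/IAA genes ran from −4.42 to 1.33 on the log2 scale, and 3 of the 23 fell more than 4-fold, against 10.7% of all loci. Among ARF genes, 0 fell as far, and their falls ended at −1.59. Falls over 2-fold numbered 6 in the Aux/IAA family and 4 in the ARF family, against 20.9% of all loci. Rises over 2-fold numbered 1 and 3, against 20.4%, and rises over 4-fold 0 and 1 (ARF13), against 9.29% of all loci. The difference between the families was not tested. These changes are relative to the median locus, since with scaling by library totals alone that locus lay 0.84 log2 units higher in PM. On that scale 11 Aux/IAA genes were higher and 3 lower, and 13 ARF genes were higher and 1 lower.

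**Figure D1:**
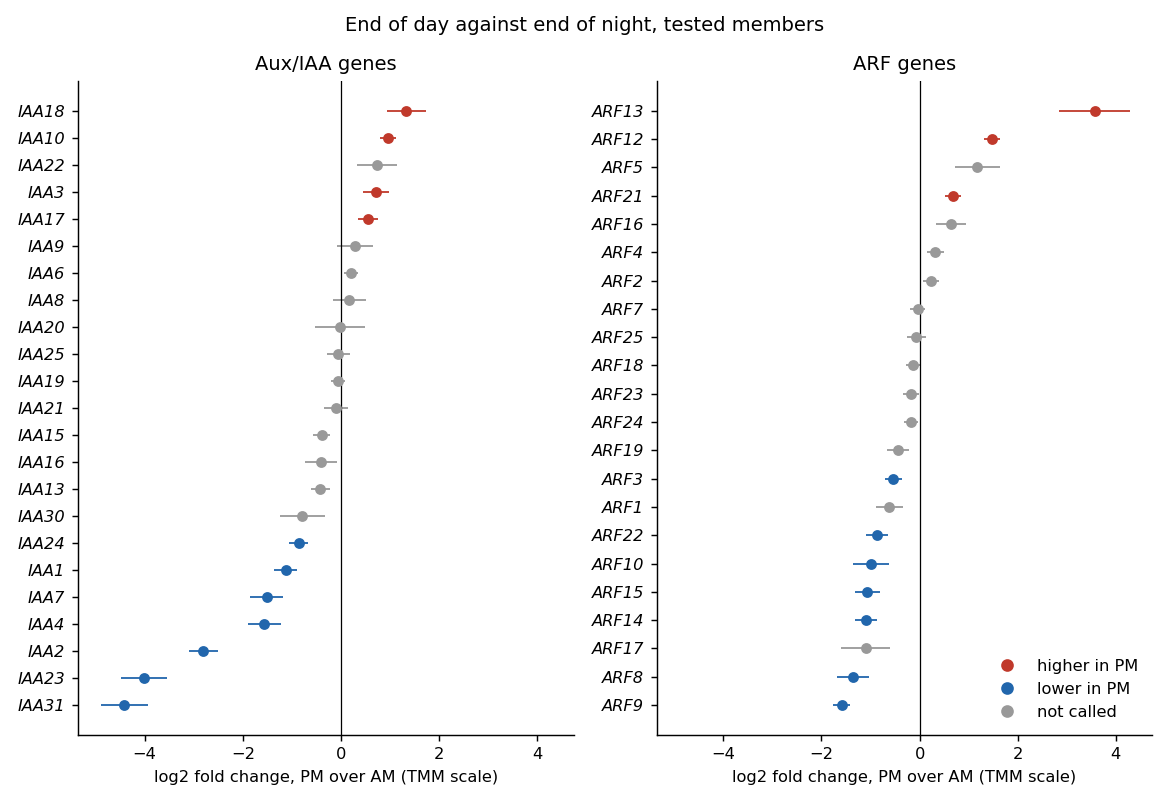
Log2 fold change of PM over AM (horizontal axis, TMM scale) with its standard error for each of the 23 tested Aux/IAA genes (left) and 22 of the tested ARF genes (right), ordered by value; colours give the edgeR call at an adjusted p of 0.05. The Aux/IAA genes reach down to −4.42, the ARF genes to −1.59.

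Summed over its members, neither family shifted beyond the spread between libraries on the TMM scale. Aux/IAA transcripts came to 632, 682 and 769 CPM in AM replicates 1, 2 and 3 and to 693, 820 and 834 CPM in PM. ARF transcripts came to 863, 751 and 1008 CPM in AM and to 851, 905 and 802 CPM in PM. In each family the AM and PM ranges overlapped. In CPM on the raw library totals, without TMM factors, the Aux/IAA sum was 520 ± 95.7 in AM and 1049 ± 82.9 in PM and the ARF sum 660 ± 168 in AM and 1145 ± 81.6 in PM (SD, n = 3), and those ranges did not overlap.

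Among the repressors, the deepest fall was that of IAA31 (LOC_Os12g40900). It was at 2.83, 3.7 and 5.43 CPM in AM replicates 1, 2 and 3 and at 0.107, 0.115 and 0.274 CPM in PM, so every AM library exceeded every PM library by far. Its log2 change was −4.42 (SE 0.48, edgeR adjusted p = 0.000101), or −5.12 without PM replicate 3. Counts were few at the end of the day: the AM libraries summed to 369 and the PM libraries to 20. Next to it in the RefSeq gene order, with no coding gene between, lies IAA30 (LOC_Os12g40890). IAA30 was at 2.14, 2.36 and 4.79 CPM in AM and 1.6, 0.978 and 2.69 CPM in PM, with overlapping groups. It was not called (log2 −0.79, SE 0.46), and the difference between the neighbours was not tested.

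IAA23 (LOC_Os06g39590), known in rice for a role in keeping the quiescent centre of the root tip, was much higher in the AM libraries. Its levels were 4.67, 5.81 and 3.53 CPM in AM and 0.213, 0.115 and 0.438 CPM in PM. The log2 change was −4.01 (SE 0.46, edgeR adjusted p = 0.000137), or −4.72 without PM replicate 3. Of the 3 root transporters, LSI1 fell in the same direction, from 22.1 ± 6.13 to 6.44 ± 0.563 CPM (SD, n = 3). NRAMP5, which did not pass the count filter, stood at 0.289, 0.416 and 3.5 CPM in AM and 0.0712, 0.230 and 0.238 CPM in PM. LSI2 had 0 counts. The leaf genes RCA (log2 −4.47) and PRK (log2 −2.89) were lower in PM too. What part tissue makeup plays in the IAA23 values was not tested.

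IAA2 (LOC_Os01g09450) was the best-counted of the strong falls. It stood at 14.5, 15 and 20.9 CPM in AM and 2.06, 1.78 and 3.23 CPM in PM (log2 −2.80, SE 0.29, edgeR adjusted p = 7.1e-05). IAA4 (LOC_Os01g18360) and IAA7 (LOC_Os02g13520) had low levels and like changes. IAA4 was at 2.94, 3.38 and 2.14 CPM in AM and 0.747, 0.978 and 1.11 CPM in PM (log2 −1.56, SE 0.34). IAA7 was at 2.60, 3.03 and 2.07 CPM in AM and 0.712, 1.09 and 0.914 CPM in PM (log2 −1.51, SE 0.34). For both, the lowest AM library lay above the highest PM library.

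Smaller falls concerned well-counted repressor genes. IAA1 (LOC_Os01g08320) was at 49.9, 74.5 and 51.5 CPM in AM and 20.6, 25.0 and 34.7 CPM in PM (log2 −1.13, SE 0.24, edgeR adjusted p = 0.00408). IAA24 (LOC_Os07g08460) was at 45.6, 59.8 and 60.2 CPM in AM and 26.5, 26.9 and 37.5 CPM in PM (log2 −0.86, SE 0.20). Neither gene had overlapping groups. With library totals alone, the calls of IAA1 (−0.26), IAA4 (−0.70), IAA7 (−0.65) and IAA24 (−0.02) ended, and those of IAA2, IAA23 and IAA31 held. All 7 falls were called with any 1 library left out.

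Rises were called at 4 Aux/IAA genes. IAA10 (LOC_Os02g57250), whose protein is bound by a capsid protein of Rice dwarf virus, was at 76.3, 76.2 and 78.1 CPM in AM and at 125, 156 and 166 CPM in PM. Its AM libraries lay within 2 CPM of each other and all PM libraries were above them (log2 0.96, SE 0.16, edgeR adjusted p = 0.00108). IAA18 (LOC_Os05g44810) rose from a low level, with 0.462, 0.648 and 1.02 CPM in AM and 1.92, 2.07 and 1.48 CPM in PM (log2 1.33, SE 0.40). IAA3 (LOC_Os01g13030) was at 19.7, 23.8 and 40.8 CPM in AM and 43.4, 47.1 and 48.3 CPM in PM (log2 0.72, SE 0.26). AM replicate 3 came close to the PM libraries. For IAA17 (LOC_Os05g14180), at 143, 153 and 213 CPM in AM and 207, 282 and 258 CPM in PM, the groups overlapped (log2 0.55, SE 0.21, edgeR adjusted p = 0.0487).

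IAA10 alone of these 4 was called whichever library was left out. The call of IAA3 ended when a PM library was left out (replicate 1 at 0.77, 2 at 0.71, 3 at 0.68), or AM replicate 1 (0.53) or 2 (0.61). That of IAA17 ended without PM replicate 2 (0.46) or 3 (0.53), or AM replicate 1 (0.46) or 2 (0.48), and with RLE scaling (edgeR adjusted p = 0.0545). Using the replicate number as a block also ended the IAA17 call (edgeR adjusted p = 0.0646). IAA18 lost its call without PM replicate 1 (1.30) or 2 (1.24), or AM replicate 1 (1.14) or 2 (1.25).

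**Figure D2:**
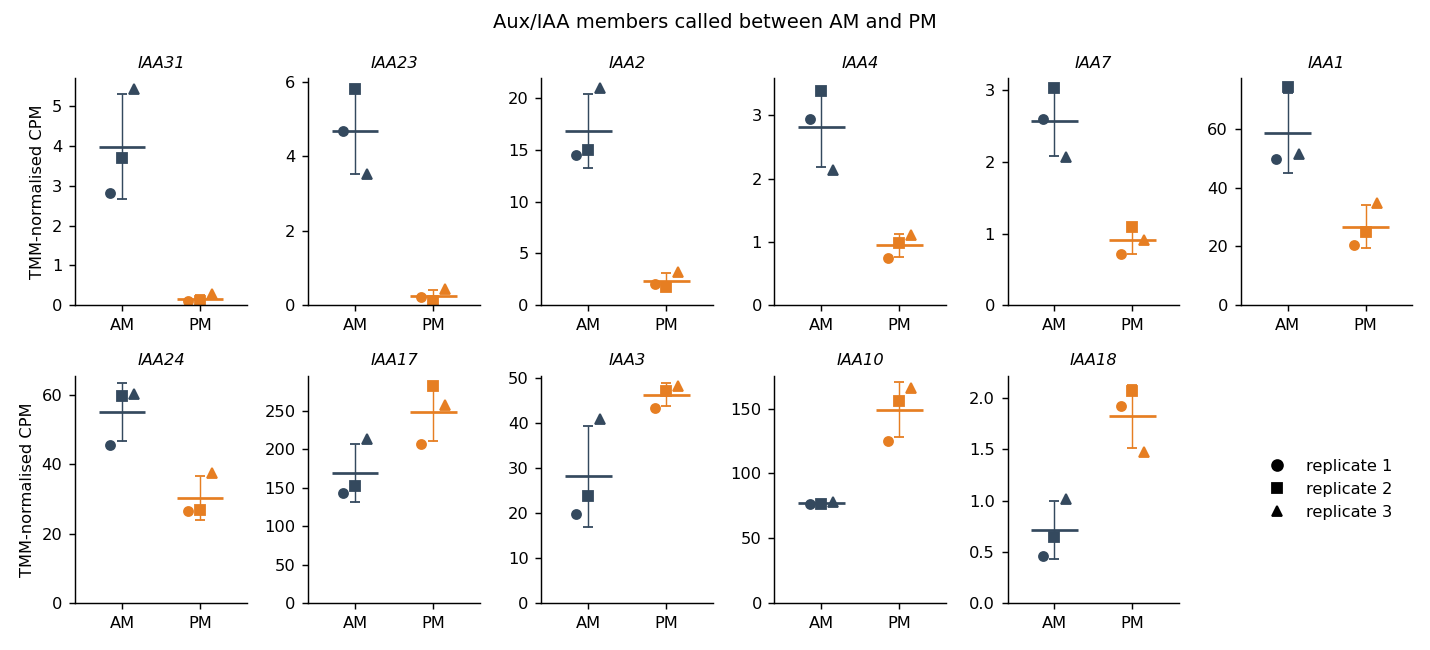
TMM-normalised CPM of the 11 called Aux/IAA genes in each library (symbols by replicate number), with the mean (line) and SD (error bar) of 3 AM and 3 PM libraries; each panel has its own axis from 0. IAA17 is the one gene whose AM and PM points overlap.

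Another 12 Aux/IAA genes were tested and not called, between −0.79 (IAA30) and 0.73 (IAA22). IAA19 (LOC_Os05g48590) had the narrowest spread, at 38.2, 39.7 and 35.5 CPM in AM and 37.2, 34.0 and 36.9 CPM in PM, with intermingled groups (log2 −0.07, SE 0.14). IAA6 (LOC_Os01g53880), linked to drought tolerance and tillering in rice, was at 115, 98.9 and 106 CPM in AM and 118, 127 and 124 CPM in PM. Those groups lay apart by a small margin and the change of 0.20 (SE 0.14) did not pass. IAA13 (LOC_Os03g53150), known from a rice mutant with few lateral roots, was at −0.42 (SE 0.20), and IAA15 (LOC_Os05g08570) at −0.40 (SE 0.17). IAA16 stood at −0.40 (SE 0.32), IAA21 at −0.11 (SE 0.24), IAA25 at −0.06 (SE 0.24) and IAA20 at −0.02 (SE 0.51). IAA8 was at 0.17 (SE 0.33) and IAA9 at 0.28 (SE 0.37). IAA22, at 0.486 to 1.09 CPM in AM and 1.17 to 1.35 CPM in PM, was called without AM replicate 3 (1.12).

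A further 4 Aux/IAA genes had too few counts to test. IAA26 (LOC_Os09g35870) had 25 counts in AM, with some in each library, and 0 in PM, so it was at least 9.28-fold higher in AM against a limit of 3 counts over the PM libraries. That bound takes the AM counts as exact, and a 95% exact counting interval with error in both groups starts at 7-fold. IAA14 had 18 AM counts and 5 PM counts, so its scaled level was 4.01 times as high in AM (95% exact counting interval from 1.43 to 13.8). IAA12 had 6 and 20 counts, 0 of them in AM replicate 1 and PM replicate 2, and its neighbour in the RefSeq gene order, IAA11, had 0 in all 6 libraries. IAA11 is known in rice from gain-of-function mutants that lack lateral roots. Such intervals and limits cover counting error only.

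Counts by ARF class were as follows. Activator-type ARFs numbered 9, of which 8 were tested; 3 of these were higher, 0 lower and 5 not called, with a median log2 change of 0.66. Of the 15 tested ARFs of the other class, 1 was higher and 7 were lower, with a median of −0.53. All loci had 28% higher, 28% lower and a median of −0.01. With library totals alone, 6 activator-type ARFs were higher and 0 lower (median 1.49), and of the others 7 were higher and 1 lower (median 0.30), against 0.84 over all loci. DESeq2 called 4 activator-type ARFs higher and 1 lower. The difference between the classes was not tested.

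**Figure D3:**
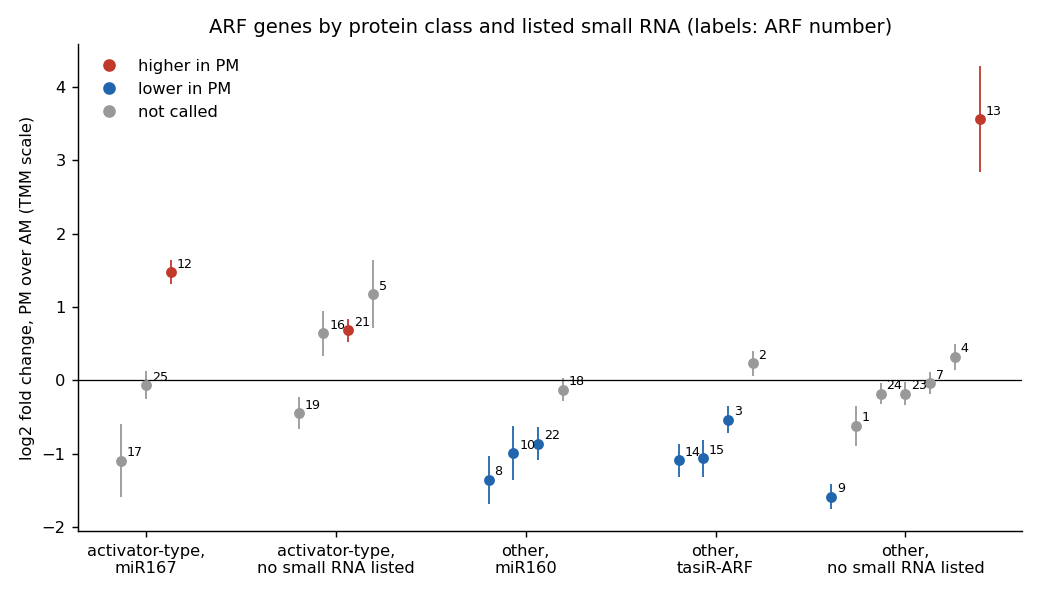
Log2 fold change of PM over AM (vertical axis, TMM scale) with its standard error for 22 of the tested ARF genes, grouped by protein class and by the small RNA listed for them, each point labelled with its ARF number. The 2 called activator-type genes shown lie above 0 and 7 of the 8 called genes of the other class lie below it; ARF13, the exception at 3.57, had 3 counts in AM.

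ARF12 (LOC_Os04g57610), an activator-type ARF that acts in root elongation and phosphate balance in rice, rose the most among well-counted ARFs. It was at 15.6, 12.7 and 17.5 CPM in AM and 41.3, 42.5 and 43.5 CPM in PM (log2 1.48, SE 0.17, edgeR adjusted p = 0.000126). Its PM libraries were tightly grouped and clear of the AM libraries. ARF21 (LOC_Os08g40900) rose less, from 53.5, 47.2 and 61.7 CPM in AM to 90.3, 91.5 and 78.7 CPM in PM (log2 0.68, SE 0.16). Both were called with any 1 library left out and with library totals alone.

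ARF17 and ARF25, which like ARF12 are listed as miR167 targets, were not called. ARF25 (LOC_Os12g41950) was at 11.2, 11.5 and 15.6 CPM in AM and 12.7, 11.8 and 12.1 CPM in PM, with overlapping groups (log2 −0.06, SE 0.19). ARF17 (LOC_Os06g46410) turned on a single library. It was at 19.6, 21.2 and 78.5 CPM in AM and 20, 15.1 and 20.7 CPM in PM, and its log2 change of −1.10 (SE 0.50, not called) became −0.13 without AM replicate 3. Without AM replicate 1 or AM replicate 2 it was called, at −1.40 in each case. With all libraries it was called lower by DESeq2 (adjusted p = 0.0306) and without the filter on low counts (edgeR adjusted p = 0.0471).

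ARF5 (LOC_Os02g04810) also depended on AM replicate 3. Levels were 7.44, 4.93 and 20.7 CPM in AM and 28.8, 22.9 and 23.3 CPM in PM, so the groups lay apart but AM replicate 3 was near the PM libraries. The change of 1.18 (SE 0.46, edgeR adjusted p = 0.0569) did not pass, and without AM replicate 3 it was 2.04 (edgeR adjusted p = 0.000241). With all 6 libraries ARF5 was called higher by DESeq2 (adjusted p = 0.0168), by limma-voom (adjusted p = 0.018) and without the filter on low counts (edgeR adjusted p = 0.0179). The same held with the replicate number as a block (edgeR adjusted p = 0.0179). ARF16 (LOC_Os06g09660), which takes part in the phosphate starvation response of rice, was at 0.64 (SE 0.31), and ARF19 (LOC_Os06g48950), which acts on leaf angle, at −0.44 (SE 0.22); neither was called. ARF11, the remaining activator-type gene, had 22 counts in AM and 11 in PM and was not tested.

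AM replicate 3 stood out for the members as a whole. It was the highest AM library at 28 of 46 members, or 60.9%, against 37.8% of all loci tested, and at 15 of the 23 ARF genes. Of the root transporters, it had the most NRAMP5 in AM (3.5 CPM) but the least LSI1. LSI1 was at 22.0, 28.3 and 16.0 CPM in AM replicates 1, 2 and 3. What part this library's makeup plays in the values was not tested. Without it, 22 members were called, 20 of them among the 22 called with all libraries.

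All 4 ARFs listed as miR160 targets had lower means in PM, and 3 were called lower, against 28% of all loci. ARF8 (LOC_Os02g41800) was at 7.50, 11.4 and 14.5 CPM in AM and 3.88, 3.1 and 5.97 CPM in PM (log2 −1.35, SE 0.33, edgeR adjusted p = 0.00711). ARF22 (LOC_Os10g33940) was at 12.1, 12.4 and 18.0 CPM in AM and 6.55, 8.34 and 8.48 CPM in PM (log2 −0.86, SE 0.23), a call that ended without PM replicate 1 (−0.74). In both genes the groups did not overlap. ARF10 (LOC_Os04g43910) was at 1.38, 1.04 and 1.29 CPM in AM and 0.676, 0.690 and 0.512 CPM in PM (log2 −0.99, SE 0.37, edgeR adjusted p = 0.0471). Its call ended without any 1 of the 6 libraries, with values of −1.04, −1.05 and −0.84 without PM replicates 1, 2 and 3 and of −0.90, −1.10 and −0.95 without AM replicates 1, 2 and 3. It also ended with DESeq2 (adjusted p = 0.0719) and without the filter on low counts (edgeR adjusted p = 0.125). With the replicate number as a block, ARF10 was not called either (edgeR adjusted p = 0.119). ARF18 (LOC_Os06g47150), at 18.2, 17.9 and 20.9 CPM in AM and 17.4, 17.1 and 17.9 CPM in PM, was at −0.12 (SE 0.15) and not called.

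Of the ARFs listed as tasiR-ARF targets, the relatives of Arabidopsis ETTIN, 3 of 4 were lower in PM, against 28% of all loci. ARF14 (LOC_Os05g43920) was at 17.3, 15.8 and 10.6 CPM in AM and 6.55, 6.85 and 7.11 CPM in PM (log2 −1.09, SE 0.22, edgeR adjusted p = 0.00335). ARF15 (LOC_Os05g48870) was at 66.8, 59.5 and 115 CPM in AM and 40.7, 36.3 and 38.5 CPM in PM (log2 −1.06, SE 0.25), and at −0.71 without AM replicate 3. The PM libraries agreed closely in both genes while the AM libraries spread, and the groups stayed apart. ARF3 (LOC_Os01g54990) was at 11.4, 12.1 and 14.4 CPM in AM and 8.57, 8.97 and 8.61 CPM in PM (log2 −0.53, SE 0.18, edgeR adjusted p = 0.0322). ARF3 lost its call when a PM library was left out (replicate 1 at −0.51, 2 at −0.55, 3 at −0.52), or AM replicate 2 (−0.56) or 3 (−0.43), and without the filter on low counts (edgeR adjusted p = 0.0769). Nor was ARF3 called with the replicate number as a block (edgeR adjusted p = 0.101). ARF2 (LOC_Os01g48060), at 12.3, 10.3 and 11.1 CPM in AM and 13.5, 13.3 and 12.8 CPM in PM, had the opposite sign (0.23, SE 0.17) and was not called.

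With library totals alone, ARF9 was the one ARF that stayed lower in PM by the test. The others moved to −0.52 (ARF8), −0.16 (ARF10), −0.23 (ARF14), −0.25 (ARF15), −0.04 (ARF22) and, on the other side of 0, to 0.30 (ARF3). None of these 6 was then called in either direction. Of the other listed small RNA targets of this class, ARF18 (0.71) and ARF2 (1.07) were then called higher.

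ARF9 (LOC_Os04g36054), for which no small RNA is listed, had the smallest p among the ARFs. Its levels were 62.2, 49.8 and 66.1 CPM in AM and 19.9, 21.5 and 17.9 CPM in PM, a 3-fold fall with a wide gap between the groups (log2 −1.59, SE 0.17, edgeR adjusted p = 8.79e-05). ARF13 (LOC_Os04g59430) was barely detected, at 0.0577, 0.0463 and 0 CPM in AM and 0.391, 0.460 and 0.457 CPM in PM. The AM libraries summed to 3 counts and the PM libraries to 44, so the scaled PM level was 13.2 times the AM level (95% exact counting interval from 4.22 to 66.3). Its fitted log2 change was 3.57 (SE 0.72, edgeR adjusted p = 0.00296). ARF20 had 0 counts in all 6 libraries.

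**Figure D4:**
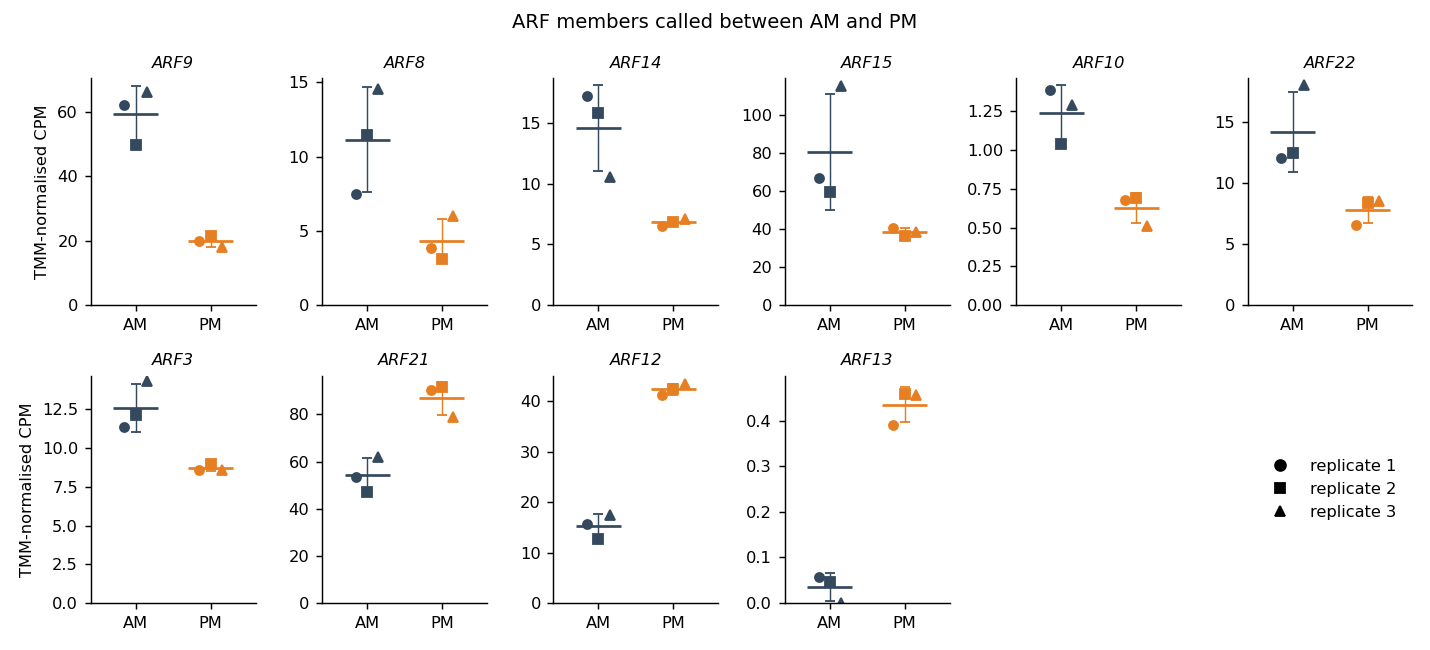
TMM-normalised CPM of 10 called ARF genes in each library (symbols by replicate number), with the mean (line) and SD (error bar) of 3 AM and 3 PM libraries; each panel has its own axis from 0. In all 10 genes the AM and PM points do not overlap, and AM replicate 3 of ARF15 stands at 115 CPM.

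Several ARFs with many counts were not called. ARF4 (LOC_Os01g70270), a gene that affects grain size in rice, was at 178, 150 and 183 CPM in AM and 206, 247 and 185 CPM in PM (log2 0.32, SE 0.17). ARF23 (LOC_Os11g32110) and ARF24 (LOC_Os12g29520), whose proteins pair to activate an actin-organising formin gene in rice, were at −0.18 (SE 0.16) and −0.18 (SE 0.14). ARF23 was at 177, 147 and 165 CPM in AM and 141, 160 and 131 CPM in PM, with overlapping groups. ARF7 (LOC_Os02g35140) was at −0.04 (SE 0.15), and ARF1 (LOC_Os01g13520) at −0.62 (SE 0.27), with a call without PM replicate 2 (−0.88) and by limma-voom (−0.76). None of the 5 was called with all libraries by the edgeR test.

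Genes of auxin synthesis, transport, perception and conjugation were listed beside the members, and their counts stand against 28% higher and 28% lower among all loci. Of 9 tested loci listed for auxin synthesis (tryptophan aminotransferases and YUCCA monooxygenases), 1 was higher and 4 were lower in PM (1 and 2 with library totals alone). The one rise, at LOC_Os03g06654, a locus without a symbol in the RefSeq table, went from 0.0577, 0.0231 and 0.0339 CPM in AM to 12.4, 17.8 and 15.4 CPM in PM. Those levels rest on 3 AM counts and 1500 PM counts, and PM was 449 times as high (95% exact counting interval from 153 to 2180; edgeR adjusted p = 1.29e-06). YUCCA1 (LOC_Os01g45760) moved the other way, from 3.4 ± 0.44 to 0.547 ± 0.177 CPM (SD, n = 3; log2 −2.59, SE 0.35), as did LOC_Os12g32750 (log2 −2.62, SE 0.49). In these 3 loci the groups did not overlap.

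Among carriers, all 3 tested PIN efflux genes of 12 listed were lower in PM, and 9 had too few counts; 2 were lower with library totals alone, and 2 when any 1 library other than AM replicate 1 was left out. PIN5A (LOC_Os01g69070), of the kind that lies in the endoplasmic reticulum, fell from 25.7, 24.2 and 33.0 CPM in AM to 1.89, 1.32 and 1.22 CPM in PM (log2 −4.23, SE 0.25, edgeR adjusted p = 4.67e-06). Each AM library held several times the level of any PM library. Of 2 tested influx carrier loci, LOC_Os01g63770 was lower (log2 −1.09, SE 0.24), a call that ended with library totals alone (−0.23), and the other was not called.

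Perception genes were mostly not called. Of 5 listed TIR1/AFB receptor loci, which the RefSeq table does not name, LOC_Os03g08850 was higher, from 5.01 ± 0.534 to 12.0 ± 2.81 CPM (SD, n = 3; log2 1.26, SE 0.23), and the other 4 lay between −0.13 and 0.26 and were not called. All 5 were higher with library totals alone. TPR3 (LOC_Os03g14980), a TOPLESS-related corepressor, rose by 0.79 (SE 0.20), and LOC_Os08g06480 of the same list was lower (log2 −0.48, SE 0.18, edgeR adjusted p = 0.0459). This call of LOC_Os08g06480 ended when a PM library was left out (replicate 1 at −0.49, 2 at −0.56, 3 at −0.39), or AM replicate 1 (−0.48) or 3 (−0.36), and without the filter on low counts (edgeR adjusted p = 0.0678), and the value was 0.35 with library totals alone. A block by replicate number ended the call too (edgeR adjusted p = 0.1165). The third corepressor locus was not called.

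Of 6 tested GH3 genes, 2 were higher and 1 lower (3 and 1 with library totals alone). GH3.5 (LOC_Os05g50890), also named JAR1, encodes the enzyme that joins jasmonate rather than auxin to isoleucine, and fell from 163, 184 and 225 CPM in AM to 49.2, 51.1 and 57.2 CPM in PM (log2 −1.86, SE 0.18, edgeR adjusted p = 4.6e-05). GH3.6 (LOC_Os05g05180) rose from 0.769 ± 0.116 to 1.92 ± 0.583 CPM (SD, n = 3; log2 1.32, SE 0.37), a call that ended without PM replicate 3 (1.06). GH3.11 (LOC_Os07g47490) was at 0.91 (SE 0.34), and lost its call when a PM library was left out (replicate 1 at 0.95, 2 at 0.91, 3 at 0.90), or AM replicate 1 (0.78) or 2 (0.67).

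**Figure D5:**
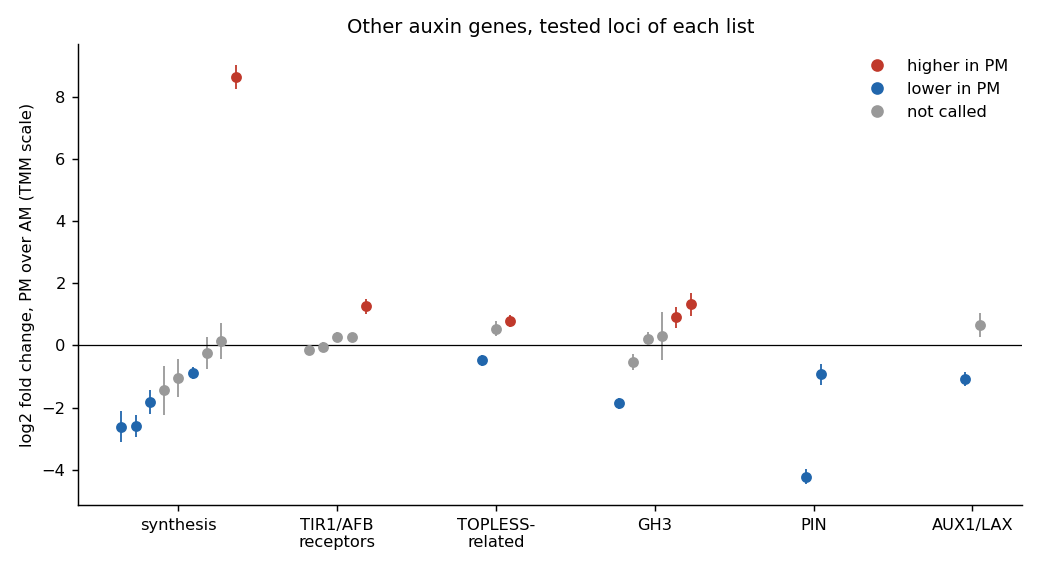
Log2 fold change of PM over AM (vertical axis, TMM scale) with its standard error for the tested loci of 6 other auxin lists, 1 PIN locus left out, coloured by the edgeR call. The point at 8.66 is LOC_Os03g06654 of the synthesis list, and both PIN genes shown lie below 0.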

How the data were processed

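The 6 deposited files hold raw counts per locus. Per the submitters' processing notes, the authors' tools were HTSeq 0.6.1, STAR and Trimmomatic 0.33. Genome build, annotation and strand setting: not given in the sources used here. No coordinates are therefore printed, and a gene's reads cannot be told apart from those of an overlapping or antisense gene. Libraries were made from 2 µg of total RNA. Summary lines (no feature 2.92% to 6.26% of records, ambiguous 0.112% to 0.171%, not unique 39.1% to 56.1%) stayed out of library sizes. Libraries of 1 group differed beyond sampling noise in every pair. PM was compared with AM by edgeR 4.0.16 (R 4.3.3; TMM, filterByExpr with a minimum count of 10, glmQLFit and glmQLFTest), adjusted over all 20548 loci; SEs come from the coefficient and its F statistic.

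The members, lists, classes and settings were chosen with earlier results of these data known. Of the 53 symbols, 50 matched the RefSeq table of assembly ASM3414082v1 by symbol and chromosome, in the same gene order; IAA22, ARF11 and ARF20 did not. RefSeq also carries an older ARF numbering, which was not used. Of the other auxin lists, the 2 called loci with the smallest p per direction are named. ARF classes and small RNA targets are background knowledge. Called members received values in every library, whatever their rank. Alternatives were RLE scaling, library totals, a filter at a mean of 5 CPM, no filter, the replicate number as a block, DESeq2 1.42.0, limma-voom (limma 3.58.1), glmTreat, an adjusted p of 0.01 and leaving out each library. Values of 1 ARF gene and 1 PIN locus are not reported here; both stay in the fits and counts.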

Additional observations from a re-analysis of the deposited data

How the results depend on the processing

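With library totals only, 11201 loci were higher and 2764 lower, Aux/IAA counts were 11 and 3, ARF counts 13 and 1, and the medians 0.72 and 0.66. Values that changed sign were IAA13 (0.44), IAA15 (0.44), IAA16 (0.43), IAA19 (0.78), IAA20 (0.85), IAA21 (0.72), IAA25 (0.79), IAA30 (0.020), ARF1 (0.24), ARF3 (0.30), ARF7 (0.79), ARF18 (0.71), ARF19 (0.38), ARF23 (0.66), ARF24 (0.66), ARF25 (0.77) and LOC_Os08g06480 (0.35). Against a 2-fold change (glmTreat), 2663 loci were higher and 2834 lower, with 0 and 3 Aux/IAA and 2 and 1 ARF genes. At an adjusted p of 0.01, 1 Aux/IAA gene was higher and 4 ARF genes lower. A mean of at least 5 CPM left 3 lower Aux/IAA genes, since it tested fewer genes, and no filter put IAA20 at 0.00346. Leaving out single libraries gave 1 to 5 higher Aux/IAA genes, 4 to 7 lower ARF genes, and ranges across 0 for IAA8 (−0.0065 to 0.59), IAA20 (−0.44 to 0.36), IAA21 (−0.27 to 0.17), IAA25 (−0.27 to 0.14), ARF7 (−0.12 to 0.021) and ARF25 (−0.14 to 0.11); where not stated otherwise the cause was not tested. Deviations of same-numbered AM and PM libraries from their group means correlated at −0.080, −0.382 and 0.034. Other pairings ran from −0.4257 (AM replicate 1, PM replicate 3) to 0.4365 (AM replicate 1, PM replicate 2). Deviations from a mean of 3 libraries constrain each other, so these values cannot decide whether the numbers pair the libraries. With a replicate block, 3 Aux/IAA genes were higher and 7 lower, and 5 ARF genes (ARF5 added) were higher and 5 lower. In that fit 2 PIN genes were lower and 19 of the 22 called members stayed called. The calls of IAA17, ARF3 and ARF10 ended. The other counts over loci and families stayed within 1.5 times of those reported. At this depth, 6 members had too few counts to test.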
